A study of Homo sapiens with 9 samples.

Results

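Integrins and laminins are the receptor and ligand families that join epithelial cells to the basement membrane. Their subunits were taken as every gene of the deposited table whose symbol is ITGA, ITGB, LAMA, LAMB or LAMC followed by its letter or number. This rule found 38 of the 32378 genes, of which 37 are described here: 26 integrin and 11 laminin subunits. Of the 37, 30 were among the 16450 genes with enough reads to be tested. SKOV3, an established cell line of human ovarian cancer, gave 3 libraries in each of 3 groups: cells given carboplatin together with COM33 (Carbo+COM33), cells given carboplatin (Carbo), and control cells. That Carbo stands for carboplatin, a DNA-crosslinking platinum drug, is taken from the series title, which asks how COM33 bears on the carboplatin response of the epithelial-mesenchymal transition and of ERK signalling. COM33 is a code name, doses and times are not in the labels, and COM33 was in no library without carboplatin. The labels do not say whether replicate numbers mark separate cultures, so p-values measure the spread between these libraries, which may be technical.

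An integrin is a pair of 1 alpha and 1 beta subunit that spans the plasma membrane, binds a matrix protein outside the cell and is linked through talin and kindlin to actin inside it. A laminin is a secreted trimer of 1 alpha, 1 beta and 1 gamma chain, and the chains are named by the genes LAMA, LAMB and LAMC. The trimer that holds LAMA3 and LAMB3 is the laminin that hemidesmosomes of epithelia hold through the pair of ITGA6 and ITGB4, and it is also bound by the pair of ITGA3 and ITGB1. Trimers of LAMA5 and LAMC1 with LAMB1 or LAMB2 are widespread in epithelial basement membranes.

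The SKOV3 libraries carried mainly the laminin receptors and the chains of these epithelial trimers. Levels between genes are compared in FPKM (fragments per kilobase of exon, scaled to the library total), as the authors deposited it. By the mean FPKM over the 9 libraries, ITGB1, the common partner of most alpha subunits, was 45th of all 32378 genes at 302.0 FPKM, and ITGA3 was 47th at 294.5 FPKM. LAMB3 was 75th at 213.7 FPKM. Then came LAMC1 at 93.1 FPKM, ITGB4 at 53.2, ITGA6 at 51.4, ITGAV at 40.1, LAMA5 at 35.9, LAMB2 at 32.7, ITGA5 at 29.8, ITGB5 at 28.7 and LAMB1 at 21.8 FPKM. LAMA3, the partner of LAMB3, had a mean of 8.69 FPKM, and ITGA2 had 3.98 FPKM. The other 16 tested subunits had means of 2.53 FPKM or less. The spread between replicates of the 30 tested subunits was close to that of all tested genes, with a median coefficient of variation of 10.8% in Carbo+COM33, 13.8% in Carbo and 11.02% in control libraries, against 10.9%, 12.4% and 10.2% over all tested genes. The widest spreads were those of ITGB6 (71.2% in Carbo), ITGAX (68.5% in Carbo) and ITGB8 (62.8% in Carbo).

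**Figure D1:**
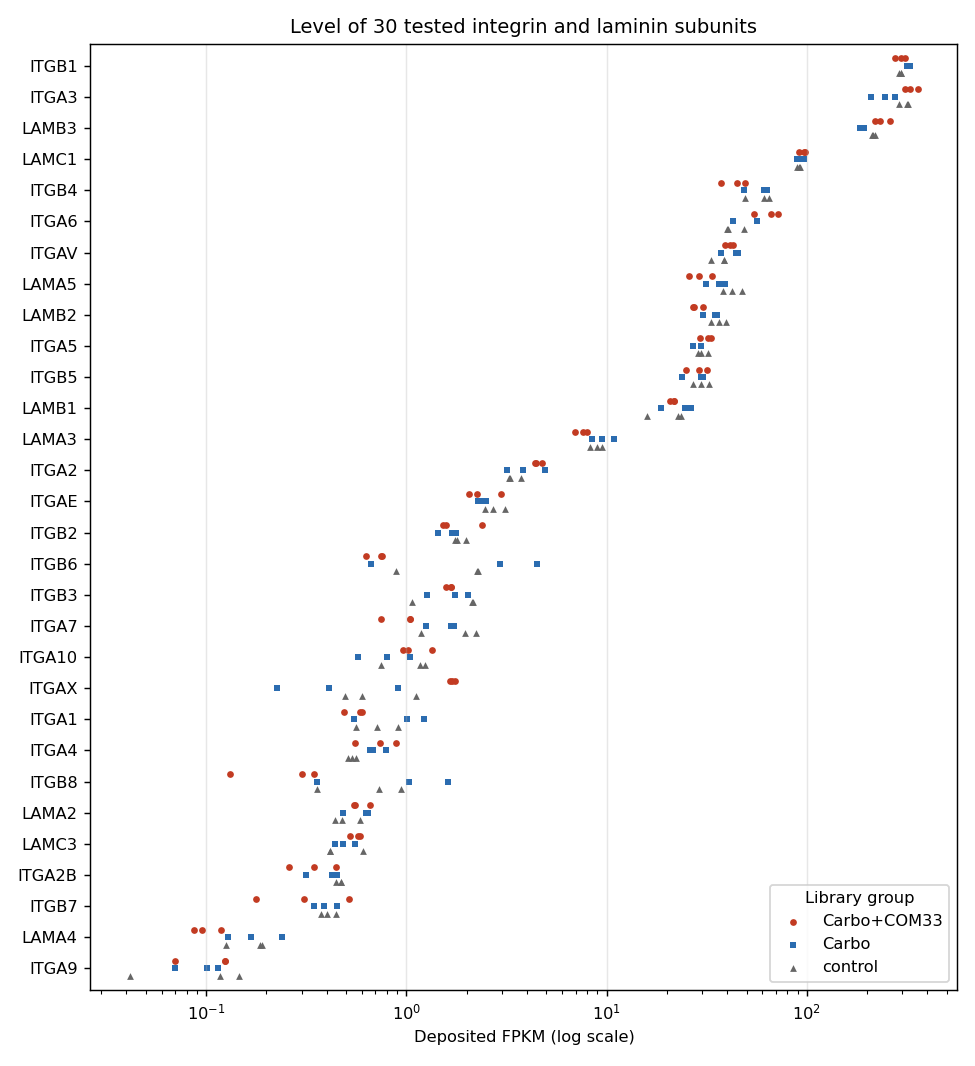
Deposited FPKM of the 30 tested integrin and laminin subunits, on a log axis, with 1 point per library, sorted by the mean over the 9 libraries. ITGB1, ITGA3 and LAMB3 stand above all other subunits, and ITGB6, ITGAX and ITGB8 have the widest scatter among the points of a group.

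Library totals ran from 13851760 to 15533668 counts. All 9 genes of the ovarian carcinoma marker list were tested, with summed FPKM of 346.5 to 405.8 in Carbo+COM33, 453.6 to 517.2 in Carbo and 478.8 to 527.6 in control libraries. ERBB2 was the highest of them (at least 141.1 FPKM in each library), while WT1 (at most 0.562 FPKM) and MUC16 (at most 0.0646 FPKM) were near 0. In Carbo+COM33 vs Carbo edgeR called 0 of the 9 higher and 2 lower (adjusted p under 0.05), against 2.43% and 2.53% of all tested genes. The 2 were KRT7, with a log2 fold change of -1.21, and ERBB2, with -0.57. At an unadjusted p under 0.05 there were 3 of the 9, against 22.4% of all tested genes. DESeq2 called 3, against 8.83% of all genes to which it gave an adjusted p. PAX8 had the one positive log2 fold change, 0.55 (adjusted p = 0.0713), and its Carbo+COM33 libraries lay above all Carbo libraries. Of the fibroblast list 2 of 4 genes were tested, and its summed FPKM was 0.599 to 1.35 in Carbo+COM33, 1.07 to 4.18 in Carbo and 1.04 to 4.11 in control libraries. Of the endothelial list 1 of 5 genes was tested, and the sum was at most 0.321 FPKM in each library.

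Adding COM33 to carboplatin went with more RNA of LAMB3, a chain of the hemidesmosomal laminin, of its receptor subunit ITGA3 and of ITGAX. It went with less RNA of ITGB8. LAMA3, the partner chain of LAMB3, and ITGB4 had negative log2 fold changes (-0.33 and -0.38) that did not pass the test. Of the 30 tested subunits, 4 were called in Carbo+COM33 vs Carbo, where a gene is called when its adjusted p (edgeR's quasi-likelihood test, Benjamini-Hochberg adjustment over the 16450 genes) is under 0.05. ITGA3, LAMB3 and ITGAX were higher and ITGB8 was lower. In RNA from whole cultures, a change in all cells and a change in the share of cells of one kind cannot be told apart. Over all tested genes 4.96% were called, 2.43% higher and 2.53% lower. DESeq2 called 6 of the 30, and 8.83% of all genes to which it gave an adjusted p. The median log2 fold change of the 30 was 0.02, against -0.0064 over all tested genes. In counts scaled to library size, the libraries of Carbo+COM33 and Carbo did not overlap for 4 subunits that were higher and 5 that were lower, against 23.7% of all tested genes (11.7% higher and 11.9% lower). The count of 4 depended on single libraries: it was 7 without control 1, 2 without control 2, 3 without control 3 and 12 without Carbo 1. Over all genes 6.21%, 3.11%, 3.69% and 16.1% were called in these fits. The count of subunits was 0 without Carbo 2, Carbo 3, Carbo+COM33 1 or Carbo+COM33 2, with 0.76%, 1.55%, 1.43% and 1.44% of all genes called. It was 1 without Carbo+COM33 3, with 2.92% of all genes called. The count over all genes moved between 128 (without Carbo 2) and 2717 (without Carbo 1).

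In Carbo+COM33 vs control 4 of the 30 were called as well: ITGA6 was higher, and LAMA5, LAMB2 and ITGA7 were lower. Over all tested genes 6.29% were called, 3.2% higher and 3.09% lower, and DESeq2 called 5 of the 30 (10.8% of all genes). With trends of GC content and length removed, 4 of the 30 were higher (ITGA6, ITGA3, LAMB3 and ITGAX) and 0 lower, and 5.85% of all tested genes were called (3.66% higher and 2.19% lower). The median log2 fold change of the 30 was 0.02, against -0.0139 over all tested genes. The libraries of Carbo+COM33 and control did not overlap for 6 subunits that were higher and 8 that were lower, against 28.7% of all tested genes (14.3% higher and 14.4% lower). The count of 4 was 0 without control 2, control 3, Carbo+COM33 1 or Carbo+COM33 2, 2 without Carbo 2 and 9 without Carbo 1. Over all genes the count was 119 (0.71%) without control 2, 203 (1.2%) without control 3, 160 (0.95%) without Carbo+COM33 1 and 189 (1.12%) without Carbo+COM33 2. It was 647 (3.84%) without Carbo 2 and 1802 (10.7%) without Carbo 1, and so moved in the same way. The comparisons share the Carbo+COM33 libraries.

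**Figure D2:**
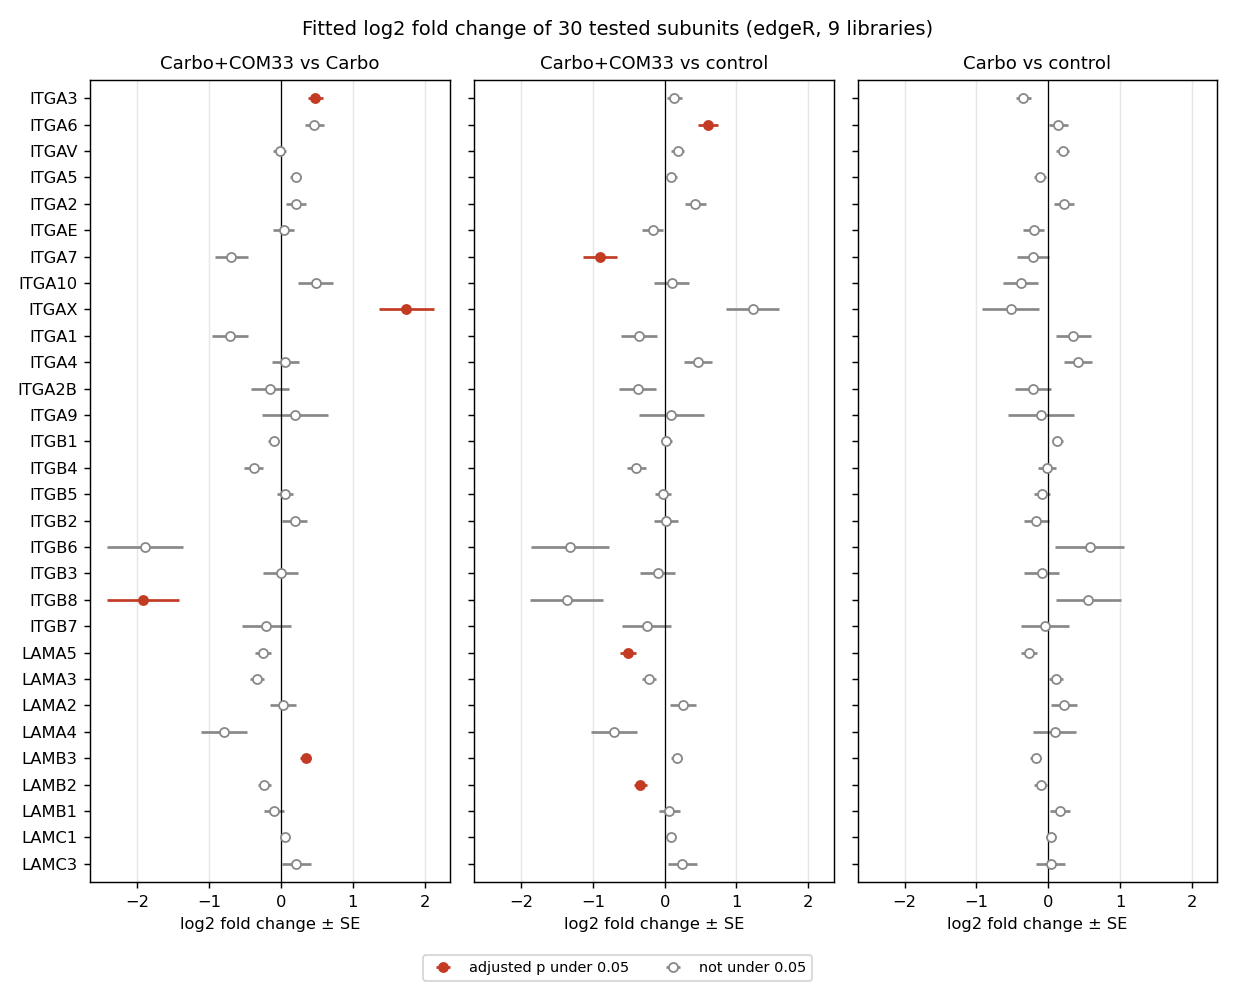
Fitted log2 fold change with its standard error (SE, derived from the test's F statistic) for the 30 tested subunits in the 3 comparisons, from the edgeR fit to the 9 libraries, with filled points where the adjusted p is under 0.05. Filled points are ITGA3, LAMB3, ITGAX and ITGB8 in Carbo+COM33 vs Carbo, and ITGA6, LAMA5, LAMB2 and ITGA7 in Carbo+COM33 vs control, and none in Carbo vs control.

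LAMB3 (chromosome 1, 209614870 to 209652466, minus strand, GRCh38) encodes the beta chain of the hemidesmosomal laminin. It had 231.0, 220.0 and 258.8 FPKM in Carbo+COM33 libraries, 193.5, 192.8 and 184.0 FPKM in Carbo libraries, and 218.4, 214.2 and 210.3 FPKM in control libraries. The groups did not overlap, with Carbo+COM33 highest and Carbo lowest. LAMB3 rose vs Carbo by a log2 fold change of 0.34 ± 0.0798 (SE, adjusted p = 0.0296). The call was lost without control 2, Carbo 2, Carbo 3 or any of the Carbo+COM33 libraries (adjusted p of 0.0541 to 0.131), or with only the 6 libraries of the 2 groups in the fit (adjusted p = 0.0619). Vs control its log2 fold change was 0.17 (adjusted p = 0.218), and 0.30 (adjusted p = 0.0232) once trends with GC content and length were removed.

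LAMA3 (chromosome 18, 23689443 to 23956222, plus strand, GRCh38), the alpha chain of that trimer, did not go the same way as its partner LAMB3. It had 6.92, 7.67 and 7.96 FPKM in Carbo+COM33 libraries, 8.48, 9.51 and 10.9 FPKM in Carbo libraries, and 8.28, 8.99 and 9.47 FPKM in control libraries. All Carbo+COM33 libraries lay below all libraries of the other groups, but neither difference was called: the log2 fold change was -0.33 vs Carbo (adjusted p = 0.0751, and 0.00860 without Carbo 1) and -0.22 vs control (adjusted p = 0.2). The values of LAMA3, ITGB6, ITGA2, ITGA4 and ITGB2 fell outside the rule for naming and are given per library by a choice made after they were seen.

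Windows at 1 start site each of LAMA3 and LAMB3 are shown because these chains belong to 1 trimer, their RNA lay on opposite sides of the Carbo libraries, and both hold the letters that AP-1 factors (the FOS and JUN proteins, which ERK signalling induces) are known to bind. The sequences are RefSeq's on GRCh38.p14, from 250 bases before to 50 after a start, and capitals mark matches to TGANTCA, searched on both strands.
LAMA3 window, chr18:23872770-23873069, plus strand: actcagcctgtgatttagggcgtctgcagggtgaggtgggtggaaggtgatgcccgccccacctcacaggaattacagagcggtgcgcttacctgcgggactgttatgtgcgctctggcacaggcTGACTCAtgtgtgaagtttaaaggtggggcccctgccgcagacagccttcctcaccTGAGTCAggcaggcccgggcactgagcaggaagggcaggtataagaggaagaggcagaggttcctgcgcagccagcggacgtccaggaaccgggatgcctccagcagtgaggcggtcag
LAMB3 window, chr1:209651325-209651624, minus strand: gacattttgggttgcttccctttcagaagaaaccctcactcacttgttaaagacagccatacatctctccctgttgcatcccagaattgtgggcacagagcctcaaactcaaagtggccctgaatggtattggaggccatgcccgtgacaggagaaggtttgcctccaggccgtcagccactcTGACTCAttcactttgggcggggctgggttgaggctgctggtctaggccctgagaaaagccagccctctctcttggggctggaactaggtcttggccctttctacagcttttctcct
The LAMA3 window holds 2 matches, which begin 125 and 69 bases before the start, and the LAMB3 window holds 1, which begins 67 bases before it. Both windows lie at starts inside the gene as annotated above, not at its outermost end, and which start these cells used was not measured. LAMB3 has other start sites with windows that hold no match, and for LAMA3 this is the one window in the table used. TGANTCA was found in 3 of the 33 windows of 26 subunit genes (9.09%), those of LAMA3, LAMB3 and ITGA5, and in 7.71% of all 35116 windows. CACCTG, bound by SNAI and ZEB factors of the epithelial-mesenchymal transition, was found in 8 of the 33 (24.2%) and in 20.6% of all windows. GGAATG, bound by TEAD factors, was found in 4 of the 33 (12.1%) and in 14.03% of all windows, and GGGCGG, bound by SP factors, in 19 of the 33 (57.6%) and in 45.0% of all windows. These matches are letters in a window, not measured binding.

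**Figure D3:**
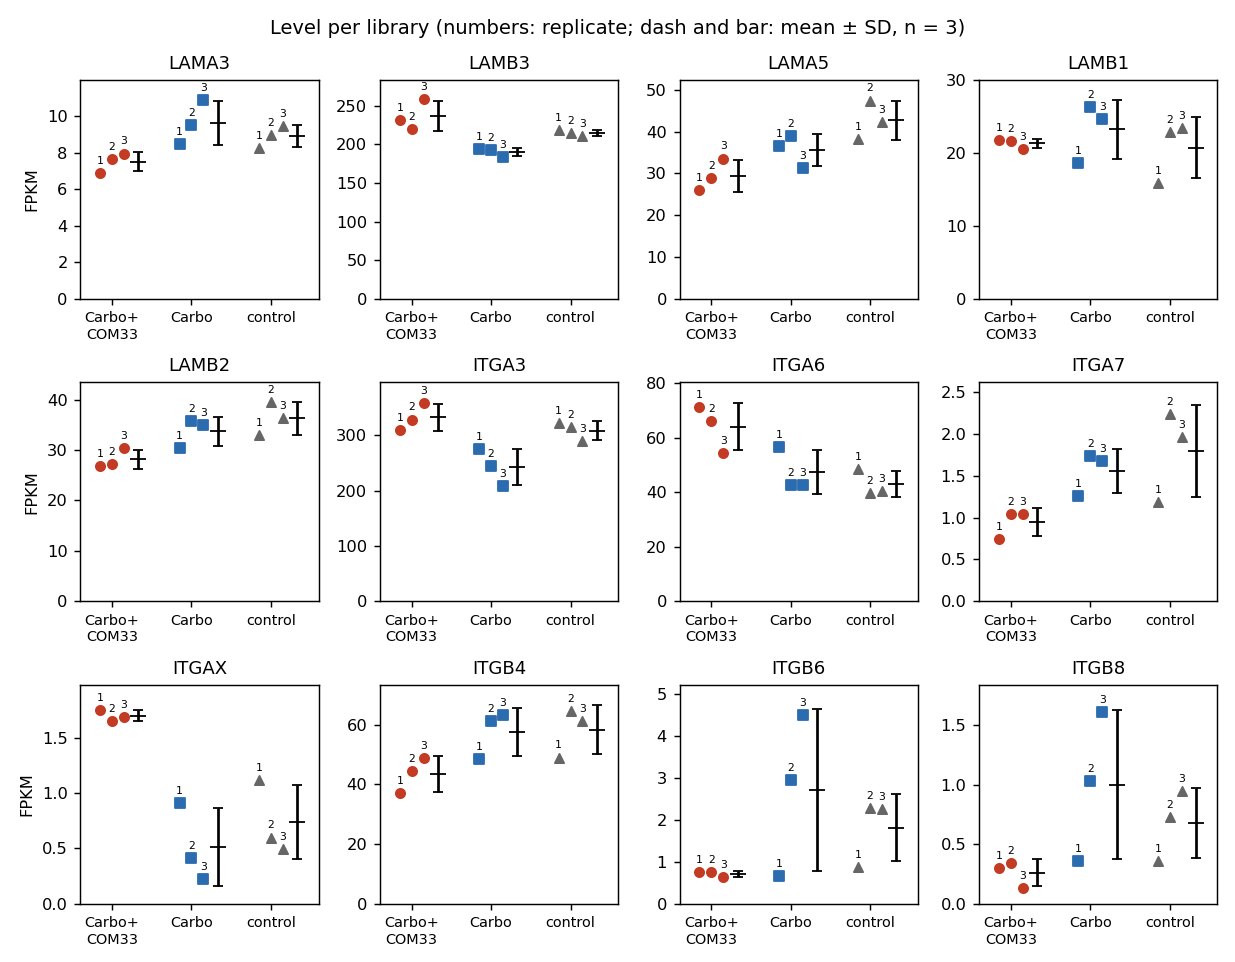
FPKM of 12 subunits in each library, with the replicate number above each point and the group mean ± SD beside it. Carbo+COM33 points lie above all Carbo points for LAMB3, ITGA3 and ITGAX and below them for LAMA3, LAMB2 (narrowly), ITGA7 and ITGB8. Replicate 1 of Carbo lies near the Carbo+COM33 points for ITGB6 and ITGB8.

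LAMA5 and LAMB2, chains of the more widespread laminins, were lower in Carbo+COM33 than in control libraries. LAMA5 (chromosome 20, 62307955 to 62367312, minus strand, GRCh38) had 25.9, 28.8 and 33.6 FPKM in Carbo+COM33 libraries, 36.5, 38.9 and 31.3 FPKM in Carbo libraries, and 38.2, 47.4 and 42.4 FPKM in control libraries. Carbo+COM33 libraries lay below all control libraries and overlapped the Carbo libraries. LAMA5 fell vs control by a log2 fold change of -0.51 (adjusted p = 0.0228) and had -0.25 vs Carbo (adjusted p = 0.217). LAMB2 (chromosome 3, 49121114 to 49133118, minus strand, GRCh38) had 26.9, 27.3 and 30.3 FPKM in Carbo+COM33 libraries, 30.5, 35.7 and 34.9 FPKM in Carbo libraries, and 33.03, 39.5 and 36.3 FPKM in control libraries. It fell vs control by a log2 fold change of -0.34 (adjusted p = 0.0450) and had -0.23 vs Carbo (adjusted p = 0.158). Both have GC-rich transcripts, of 66.4% GC for LAMA5 and 60.3% for LAMB2. So do other subunits, with 61.3% for ITGA3, 63.7% for ITGB4, 60.2% for ITGA7 and 58.9% for LAMB3. With trends of GC content and length removed, the log2 fold change vs control was -0.21 for LAMA5 (adjusted p = 0.138) and -0.18 for LAMB2 (adjusted p = 0.279), so neither call remained. LAMA5 was also not called without control 2, control 3, Carbo+COM33 1 or Carbo+COM33 2 (adjusted p of 0.0765 to 0.132), nor LAMB2 without these or Carbo 2 (0.0709 to 0.227).

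LAMC1 and LAMB1, the other chains of the widespread laminins, were not called in Carbo+COM33 vs Carbo or vs control. LAMC1 (chromosome 1, 183023460 to 183145592, plus strand, GRCh38) had 96.2, 97.5 and 91.7 FPKM in Carbo+COM33 libraries, 97.2, 93.4 and 89.4 FPKM in Carbo libraries, and 92.6, 91.5 and 88.8 FPKM in control libraries. LAMB1 had 21.7, 21.6 and 20.6 FPKM in Carbo+COM33 libraries, 18.7, 26.4 and 24.7 FPKM in Carbo libraries, and 15.95, 22.9 and 23.5 FPKM in control libraries. Replicate 1 was the lowest LAMB1 library of both Carbo and control. The log2 fold changes vs Carbo were 0.06 ± 0.0731 (SE) for LAMC1 and -0.10 ± 0.143 (SE) for LAMB1. Among the chains of low level, LAMA4 had 14 to 20 counts in Carbo+COM33, 22 to 40 in Carbo and 21 to 32 in control libraries, with a log2 fold change of -0.80 vs Carbo (adjusted p = 0.163). LAMA2 and LAMC3 had group means of 0.481 to 0.588 FPKM, and their log2 fold changes vs Carbo were 0.03 and 0.22.

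The make-up of the laminin RNA is given as shares and ratios per library, in FPKM not corrected for GC content. LAMB3 made up 82.7% ± 0.866 of the beta chains in Carbo+COM33, 77.0% ± 2.40 in Carbo and 79.0% ± 2.34 in control libraries. The summed FPKM of the alpha chains was lowest in Carbo+COM33, at 37.7 ± 4.31, against 46.0 ± 3.06 in Carbo and 52.2 ± 5.01 in control libraries. LAMB3 was 31.5 ± 2.50 times the FPKM of LAMA3 in Carbo+COM33, 20.0 ± 2.99 times in Carbo and 24.1 ± 2.11 times in control libraries. FPKM divides by all annotated exons of a gene together, 14678 bases for LAMA3 and 4688 for LAMB3. The size of the ratio thus depends on which transcripts the cells made, which was not measured. For this ratio the Carbo+COM33 libraries lay above all Carbo and all control libraries. Not all ratios computed did so: LAMB3 to LAMB1 overlapped in all 3 comparisons. Carbo+COM33 also overlapped Carbo in LAMA3 to LAMA5, LAMB1 to LAMB2, ITGA3 to ITGA6 and ITGB1 to ITGB4. Against control, LAMA3 to LAMA5 and LAMB1 to LAMB2 lay higher, ITGA3 to ITGA6 lay lower and ITGB1 to ITGB4 overlapped. No share of ratios over all genes was computed to set beside these. An exact permutation test of 3 against 3 libraries cannot give a two-sided p under 0.1, so no test is given for shares and ratios.

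**Figure D4:**
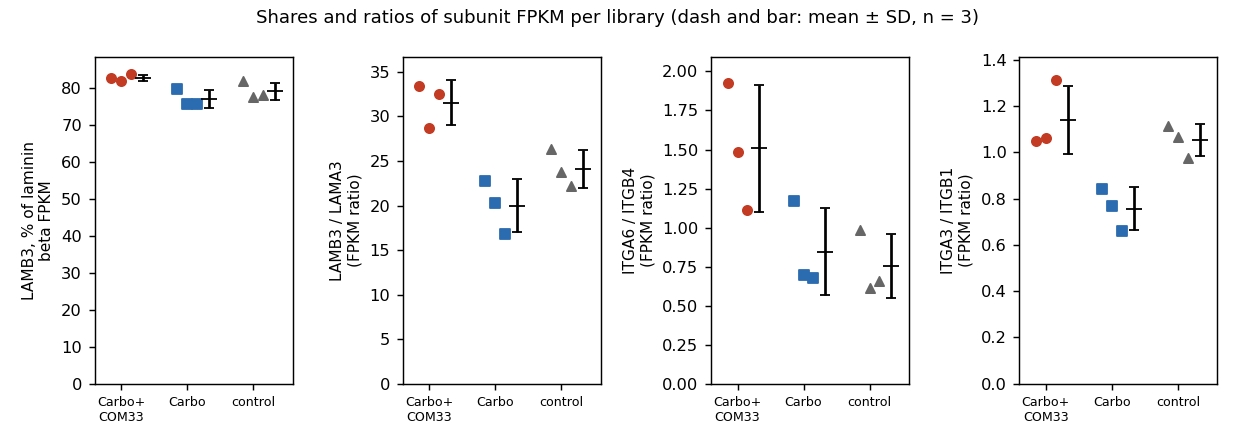
Share of LAMB3 among laminin beta chains and ratios of LAMB3 to LAMA3, ITGA6 to ITGB4 and ITGA3 to ITGB1, in FPKM not corrected for GC content, with 1 point per library and the group mean ± SD. Carbo+COM33 points lie above all Carbo points in each panel except the ratio of ITGA6 to ITGB4.

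Among the laminin receptors, ITGA3 rose in Carbo+COM33 vs Carbo and ITGA6 rose vs control, while ITGB4 passed the test in neither comparison. ITGA3 (chromosome 17, 50055968 to 50090481, plus strand, GRCh38) pairs with ITGB1 to bind laminins of LAMA3 and LAMA5. It had 309.0, 328.4 and 359.0 FPKM in Carbo+COM33 libraries, 275.1, 244.3 and 208.7 FPKM in Carbo libraries, and 321.3, 315.3 and 289.0 FPKM in control libraries. The Carbo libraries lay below all 6 others, while Carbo+COM33 and control libraries overlapped. ITGA3 rose vs Carbo by a log2 fold change of 0.48 ± 0.105 (SE, adjusted p = 0.0212). It was not called without Carbo 2, Carbo 3 or any of the Carbo+COM33 libraries (adjusted p of 0.0547 to 0.1102). Vs control the log2 fold change was 0.13 (adjusted p = 0.473), and 0.32 (adjusted p = 0.0347) with trends of GC content and length removed.

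ITGA6 (chromosome 2, 172427354 to 172506282, plus strand, GRCh38), the partner of ITGB4 in hemidesmosomes and of ITGB1 elsewhere, had 71.4, 66.2 and 54.5 FPKM in Carbo+COM33 libraries, 56.7, 42.7 and 42.7 FPKM in Carbo libraries, and 48.4, 39.9 and 40.4 FPKM in control libraries. Carbo+COM33 libraries lay above all control libraries and overlapped Carbo 1. ITGA6 rose vs control by a log2 fold change of 0.60 (adjusted p = 0.0228) and had 0.46 vs Carbo (adjusted p = 0.0644, with 0.00304 without Carbo 1 and 0.0437 with trends of GC content and length removed). Vs control it was not called without control 2, control 3, Carbo+COM33 1 or Carbo+COM33 2 (adjusted p of 0.0978 to 0.127).

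ITGB4 (chromosome 17, 75721328 to 75757818, plus strand, GRCh38) carries the long tail that binds the keratin linker plectin. It had 37.1, 44.6 and 49.0 FPKM in Carbo+COM33 libraries, 48.5, 61.2 and 63.4 FPKM in Carbo libraries, and 49.0, 64.7 and 61.2 FPKM in control libraries. Its log2 fold change of -0.38 vs Carbo was not called (adjusted p = 0.112, and 0.0123 without Carbo 1), nor was that of -0.39 vs control (adjusted p = 0.0889). With trends of GC content and length removed, the log2 fold change was -0.41 vs Carbo (adjusted p = 0.0813) and -0.18 vs control (adjusted p = 0.483). The FPKM of ITGA6 was 1.51 ± 0.406 times that of ITGB4 in Carbo+COM33, 0.847 ± 0.279 times in Carbo and 0.755 ± 0.203 times in control libraries (SD, n = 3 each). This ratio lay above all control libraries in Carbo+COM33 and overlapped Carbo 1. It is not corrected for GC content, which is 42.9% for ITGA6 and 63.7% for ITGB4.

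ITGB1 (chromosome 10, 32900319 to 33005792, minus strand, GRCh38) had 294.2, 309.5 and 273.9 FPKM in Carbo+COM33 libraries, 326.4, 318.3 and 316.0 FPKM in Carbo libraries, and 288.5, 295.4 and 296.2 FPKM in control libraries. Its log2 fold change was -0.10 ± 0.0763 (SE) vs Carbo (adjusted p = 0.464), although the Carbo libraries lay above all others. The FPKM of ITGA3 was 1.14 ± 0.147 times that of ITGB1 in Carbo+COM33, 0.757 ± 0.0915 times in Carbo and 1.052 ± 0.0702 times in control libraries, with the Carbo libraries below all others. This ratio is not corrected for GC content, which is 61.3% for ITGA3 and 40.0% for ITGB1. In a fit of Carbo vs control with the replicate number as a block, their log2 fold changes were -0.36 and 0.12. With trends of GC content and length removed they were -0.15 and -0.02. ITGA7, a laminin receptor subunit known from muscle, was rare: it had 66, 96 and 97 counts in Carbo+COM33 libraries, 118, 172 and 153 counts in Carbo libraries, and 109, 212 and 182 counts in control libraries. ITGA7 fell vs control by a log2 fold change of -0.90 (adjusted p = 0.0396) and had -0.69 vs Carbo (adjusted p = 0.105). The call vs control was not kept with trends of GC content and length removed (log2 fold change of -0.75, adjusted p = 0.0770, and 0.0141 with the block added) or without control 2, control 3, Carbo 2, Carbo+COM33 1 or Carbo+COM33 2 (adjusted p of 0.0589 to 0.194).

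Receptors of ITGAV bind the RGD motif of fibronectin, vitronectin and latent TGF-beta. ITGAV had 39.0, 41.4 and 42.8 FPKM in Carbo+COM33 libraries, 37.1, 45.3 and 44.5 FPKM in Carbo libraries, and 33.2, 38.7 and 38.6 FPKM in control libraries. ITGB5, its partner for vitronectin, had 25.0, 28.9 and 31.6 FPKM in Carbo+COM33 libraries, 23.8, 30.5 and 29.5 FPKM in Carbo libraries, and 26.9, 32.3 and 29.6 FPKM in control libraries. The log2 fold changes vs Carbo were -0.02 ± 0.0935 (SE) for ITGAV and 0.06 ± 0.111 (SE) for ITGB5, and the libraries of Carbo+COM33 and Carbo overlapped for both. ITGA5, which pairs with ITGB1 as the main fibronectin receptor, had 29.3, 31.9 and 33.2 FPKM in Carbo+COM33 libraries, 27.0, 29.6 and 26.9 FPKM in Carbo libraries, and 28.5, 32.0 and 29.8 FPKM in control libraries, with a log2 fold change of 0.21 vs Carbo (adjusted p = 0.145).

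ITGB6 and ITGB8, the partners of ITGAV that are known to activate latent TGF-beta, were low in all 3 Carbo+COM33 libraries. ITGB8 (chromosome 7, 20330702 to 20415754, plus strand, GRCh38) had 0.300, 0.346 and 0.131 FPKM in Carbo+COM33 libraries, 0.357, 1.03 and 1.61 FPKM in Carbo libraries, and 0.360, 0.732 and 0.945 FPKM in control libraries, from 29 to 351 counts per library. It fell vs Carbo by a log2 fold change of -1.92 ± 0.497 (SE, adjusted p = 0.0446), and each Carbo+COM33 library lay below all others, though the gap to Carbo 1 was small. It was called in 2 of the 9 fits that left out 1 library, those without control 1 and Carbo 1, with adjusted p of 0.000606 to 0.178 over the 9 fits. Vs control its log2 fold change was -1.36 (adjusted p = 0.122). ITGB6 (chromosome 2, 160099666 to 160200313, minus strand, GRCh38) had 0.755, 0.750 and 0.629 FPKM in Carbo+COM33 libraries, 0.664, 2.95 and 4.49 FPKM in Carbo libraries, and 0.884, 2.28 and 2.26 FPKM in control libraries. Its log2 fold change of -1.90 vs Carbo was not called (adjusted p = 0.0597, and 0.000212 without Carbo 1), and that of -1.32 vs control was not called either (adjusted p = 0.159).

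Replicate 1 of Carbo and of control stood apart from replicates 2 and 3 of its group in ITGB6 and ITGB8. The same split was seen in COL1A1, the collagen of the fibroblast list, which had 0.559, 1.21 and 1.00 FPKM in Carbo+COM33 libraries, 0.998, 3.89 and 3.62 FPKM in Carbo libraries, and 0.970, 3.87 and 3.51 FPKM in control libraries. KRT7 had 27.8, 36.8 and 32.6 FPKM in Carbo+COM33 libraries, 50.7, 90.9 and 86.9 FPKM in Carbo libraries, and 52.3, 85.1 and 86.9 FPKM in control libraries. The part of whatever sets these libraries apart in the results for ITGB6, ITGB8 and ITGAX was not tested.

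ITGAX (chromosome 16, 31355134 to 31382997, plus strand, GRCh38), known as the alpha subunit that pairs with ITGB2 on dendritic and other myeloid cells, was the subunit with the largest called rise vs Carbo. It had 172, 170 and 174 counts in Carbo+COM33 libraries, 95, 45 and 23 counts in Carbo libraries, and 115, 63 and 51 counts in control libraries, or a mean of 1.70 ± 0.0504, 0.515 ± 0.353 and 0.739 ± 0.336 FPKM (SD, n = 3 each) in that order of groups. The Carbo+COM33 libraries lay above all others, and replicate 1 was the highest in both other groups. ITGAX rose vs Carbo by a log2 fold change of 1.75 ± 0.38 (SE, adjusted p = 0.0212), which was 2.43 without Carbo 1. It was not called without Carbo 2, Carbo 3 or any of the Carbo+COM33 libraries (adjusted p of 0.0611 to 0.127). Vs control the log2 fold change was 1.23 (adjusted p = 0.0655), and 1.33 (adjusted p = 0.0473) with trends of GC content and length removed. Leukocyte markers were near 0: PTPRC, the pan-leukocyte gene, was at most 0.0442 FPKM in each library, 1 of the 6 listed leukocyte genes in the table was tested, and their summed FPKM was 0.221 to 0.298 in Carbo+COM33, 0.205 to 0.554 in Carbo and 0.285 to 1.00 in control libraries. ITGB2 had 1.53, 1.57 and 2.39 FPKM in Carbo+COM33 libraries, 1.78, 1.70 and 1.43 FPKM in Carbo libraries, and 1.98, 1.74 and 1.79 FPKM in control libraries, with a log2 fold change of 0.19 vs Carbo (adjusted p = 0.563).

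The collagen-binding alpha subunits were not called. ITGA2 had 4.75, 4.46 and 4.39 FPKM in Carbo+COM33 libraries, 4.93, 3.83 and 3.17 FPKM in Carbo libraries, and 3.75, 3.28 and 3.24 FPKM in control libraries, and its Carbo+COM33 libraries lay above all control libraries (log2 fold change of 0.43, adjusted p = 0.0848). ITGA1 had a log2 fold change of -0.70 vs Carbo (adjusted p = 0.122) and ITGA10 of 0.48 (adjusted p = 0.273). ITGA4, which binds VCAM and fibronectin, had 0.557, 0.890 and 0.737 FPKM in Carbo+COM33 libraries, 0.796, 0.684 and 0.661 FPKM in Carbo libraries, and 0.559, 0.536 and 0.514 FPKM in control libraries. The remaining tested subunits ITGA2B, ITGA9, ITGAE, ITGB3 and ITGB7 had log2 fold changes of -0.20 to 0.19 vs Carbo. The 7 subunits that were not tested were ITGA8, ITGA11, ITGAD, ITGAL, ITGAM, LAMA1 and LAMB4, with 0 to 17 counts per library. Whether the counting used strand is not stated, so reads where exons of different genes overlap are uncertain. On the other strand, ITGB7 shares 1886 of its 4481 exonic bases with ZNF740 and ITGAE shares 427 with HASPIN. Also on the other strand, ITGB2 shares 303 with ITGB2-AS1 and LAMA5 shares 244 with ADRM1. Overlaps on the same strand leave reads uncertain under any strand setting. There ITGB3 shares 2266 of its 4394 exonic bases with AC068234.1, ITGB6 shares 966 of 4687 with AC092153.1 and ITGA1 shares 475 with PELO.

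Carbo vs control asks what carboplatin alone did to these genes. Without pairing, 0 of the 30 were called by edgeR, against 0.0% of all tested genes. DESeq2 called 0 of the 30, against 1.17% of all genes to which it gave an adjusted p. At an unadjusted p under 0.05 in edgeR there were 3 of the 30, against 16.7% of all tested genes. The 3 were ITGA3, LAMA5 and LAMB3. Without Carbo 1 the unpaired test called 3, ITGA3 (log2 fold change of -0.45), ITGAX (-1.21) and ITGB6 (1.04), against 6.08% of all genes tested in that fit. The libraries of Carbo and control did not overlap for 2 subunits that were higher and 3 that were lower, against 22.5% of all tested genes (10.8% higher and 11.7% lower). Same-numbered Carbo and control libraries deviated together, as to a lesser degree did Carbo 2 with control 3 and Carbo 3 with control 2. With the replicate number as a block 8 of the 30 were called, against 22.7% of all tested genes (11.2% higher and 11.5% lower).

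In that paired fit ITGA3 fell in Carbo libraries by a log2 fold change of -0.36 ± 0.0489 (SE, adjusted p = 9.6e-05), with 275.1, 244.3 and 208.7 FPKM in Carbo against 321.3, 315.3 and 289.0 FPKM in control libraries. Also lower were LAMA5 (-0.26, adjusted p = 0.00268) and LAMB3 (-0.18, adjusted p = 0.00637). Higher in Carbo libraries were ITGB8 (0.50, adjusted p = 0.0127), ITGAV (0.19, adjusted p = 0.00424), LAMB1 (0.17, adjusted p = 0.0206), ITGA6 (0.13, adjusted p = 0.0484) and ITGB1 (0.12, adjusted p = 0.0499). In each of these genes all 3 same-numbered pairs went the same way except in ITGB8, where 2 of 3 did. Carbo+COM33 vs Carbo uses the same Carbo libraries, so opposite signs in these 2 comparisons are not independent results. With trends of GC content and length removed from the paired fit 3 were called, against 10.4% of all tested genes (5.66% higher and 4.77% lower). They were ITGA3 (-0.15, adjusted p = 0.0308), LAMB1 (0.19, adjusted p = 0.0134) and ITGB4 (0.23, adjusted p = 0.00319), and the values of LAMA5 and ITGB1 changed sign (0.03 and -0.02). Without pair 2 the paired fit called 2, ITGA3 and LAMA5, which were the subunits called with each pair left out in turn. Over all genes 9.87% were called without pair 2.

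Genes that act with integrins and laminins are given from 4 lists, to be read against the 4.96% of all tested genes called in Carbo+COM33 vs Carbo (2.43% higher and 2.53% lower). At an unadjusted p under 0.05 there were 10 of 37 activators and adaptors, 12 of 22 basement membrane partners, 12 of 30 other ligands and 7 of 16 membrane partners, against 22.4% of all tested genes. DESeq2 called 8, 6, 5 and 5 of these lists in the same order, against 8.83% of all genes. With the replicate block in the 2 groups, 2 rose and 2 fell, 0 and 4, 2 and 5, and 3 and 0 in that order. In that fit 3.05% of all tested genes were called. Values without single libraries are not given for partners. Over all genes the count moved between 128 (without Carbo 2) and 2717 (without Carbo 1). In the list of integrin activators and adaptors 3 of 37 tested genes rose and 2 fell in Carbo+COM33 vs Carbo (13.5% called). TLN2, a talin that links beta subunits to actin, rose by a log2 fold change of 1.35 (adjusted p = 0.000502), with 5.04 ± 0.272 FPKM in Carbo+COM33 and 2.01 ± 0.417 FPKM in Carbo libraries (SD, n = 3 each). RAP1B, a small GTPase of integrin activation, rose by 0.54 (adjusted p = 0.00938) and ITGB1BP1, which binds the tail of ITGB1, by 0.49 (adjusted p = 0.0381). ACTN4, an actin crosslinker, had -0.67 (adjusted p = 0.0144) and KANK2, a talin-binding protein, had -0.38 (adjusted p = 0.0149). The median of the list was 0.02, against -0.0064 over all tested genes.

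Of 22 tested basement membrane and hemidesmosome partners, 0 rose and 3 fell vs Carbo, against 2.43% and 2.53% of all tested genes by edgeR, while 12 of the 22 had an unadjusted p under 0.05 and DESeq2 called 6. SMOC1, a calcium-binding matrix protein, had 1.04 ± 0.143 FPKM in Carbo+COM33 and 7.75 ± 0.863 FPKM in Carbo libraries (log2 fold change of -2.86, adjusted p = 4.98e-05). NID2, which bridges laminin and type IV collagen, had 5.89 ± 0.318 FPKM in Carbo+COM33 and 14.6 ± 2.76 FPKM in Carbo libraries (log2 fold change of -1.28, adjusted p = 0.000608). FRAS1, a basement membrane protein of epithelia, had a log2 fold change of -0.48 (adjusted p = 0.0116). The median of the list was -0.14.

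Of 30 tested other integrin ligands, 2 rose and 2 fell vs Carbo (13.3% called). SPP1 (osteopontin, a ligand of ITGAV pairs) had 53.3 ± 5.03 FPKM in Carbo+COM33 and 16.1 ± 9.49 FPKM in Carbo libraries (log2 fold change of 1.75, adjusted p = 0.0114). CCN3 rose by 0.88 (adjusted p = 0.00594), while CCN1 had -0.73 (adjusted p = 0.0206) and THBS1, thrombospondin, -2.40 (adjusted p = 0.0289). THBS1 was uneven among Carbo libraries, at 4.98 ± 0.935 FPKM in Carbo+COM33 and 26.7 ± 18.5 FPKM in Carbo libraries. The median of the list was -0.19. Of 16 tested tetraspanins and other membrane partners, 4 rose and 1 fell vs Carbo (31.2% called). The tetraspanins CD82 (1.00, adjusted p = 0.00468), CD63 (0.91, adjusted p = 0.00865) and CD9 (0.88, adjusted p = 0.0153) and the integrin-associated CD47 (0.42, adjusted p = 0.0206) were higher, and CAV1, the coat protein of caveolae, was lower (-0.50, adjusted p = 0.0142). CD63 was the most abundant of these, at 270.2 ± 43.4 FPKM in Carbo+COM33 and 146.4 ± 28.4 FPKM in Carbo libraries. The median of the list was 0.19.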

How the data were processed

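RNA of 9 SKOV3 libraries was sequenced. The labels' protocols give poly-T selection of messenger RNA. The submitters' processing notes name GRCh38, HISAT2, DESeq2 1.26.0 and HTSeq 0.11.2, and the strand setting is not given in the sources used here. The authors deposited whole-number counts per gene and FPKM values, which equalled count over length and library total (largest difference 8.2e-12). Coordinates are those of GENCODE 29, which matched all 32378 genes.

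The counts were tested with edgeR 4.0.16 (R 4.3.3, limma 3.58.1): filterByExpr, TMM (factors 0.982 to 1.01) and a quasi-likelihood fit of the 3 group means over all 9 libraries, with 6 residual degrees of freedom. An adjusted p is edgeR's, after Benjamini-Hochberg adjustment over the 16450 genes tested. Depth, between 13851760 and 15533668 counts a library, limits the precision of subunits with few counts. The script was checked on simulated data.

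Deviations of same-numbered Carbo and control libraries from their group means correlated at 0.824, 0.565 and 0.748 over 6607 genes. Of differently numbered libraries, Carbo 2 with control 3 correlated at 0.402 and Carbo 3 with control 2 at 0.254. The remaining correlations were -0.779 to -0.446. The 6 libraries of Carbo vs control were therefore also fitted with a block per replicate number. The GC and length correction used natural splines with 4 degrees of freedom.

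Of the 38 members 1 is not reported here and is in no count of subunits. Per-library values are given for subunits called in some comparison or with a mean of at least 10 FPKM, with 5 others chosen after their values were seen (LAMA3, ITGB6, ITGA2, ITGA4 and ITGB2), and partners are named when called in Carbo+COM33 vs Carbo. Members, lists and tests were chosen with earlier results of these data known. Alternatives were DESeq2 1.42.0, other size factors and filters, fits to the compared groups, the block, the GC correction and leaving out each library. Leaving out each pair was added after seeing the data. Python 3.11.15, pandas 2.3.3, numpy 2.4.6 and matplotlib 3.10.9 were used.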

Additional observations from a re-analysis of the deposited data

How the results depend on the processing

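Subunits called in Carbo+COM33 vs Carbo numbered 4, and 10 with no filter on low counts, 9 with a replicate block in all 9 libraries and 2 with a replicate block in the 2 groups. Over all genes 816 (4.96%) were called, and 1340 with DESeq2 (8.83%), 1876 with no filter (5.79%) and 1554 with the block in 9 libraries (9.45%). There were 502 with the block in the 2 groups (3.05%) and 1260 with GC and length trends removed (7.66%). In Carbo+COM33 vs control 4 subunits were called, and 9 with no filter, 8 with only the 2 groups, 7 with the block in 9 libraries, 8 with the block in the 2 groups and 8 with that block and the GC correction. Over all genes 1035 (6.29%) were called, and 1563 with DESeq2 (10.8%), 1934 with no filter (5.97%) and 1462 with only the 2 groups (8.89%). There were 1625 with the block in 9 libraries (9.88%), 1129 with the block in the 2 groups (6.86%) and 1715 with block and GC correction (10.4%). The fits with no filter tested 32378 genes, and the others named here 16450. In Carbo vs control 0 genes were called, and 133 with DESeq2 (1.17%), 928 with no filter (2.87%), 3739 with the block (22.7%) and 1715 with block and GC correction (10.4%), of which subunits were 0, 0, 2, 8 and 3. The cause of these moves was not tested, and the fits differ by construction in the genes or libraries that enter them.

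Leaving out 1 library at a time gave 0 to 12 called subunits in Carbo+COM33 vs Carbo (128 to 2717 genes, 0.76% to 16.1%). It gave 0 to 9 in Carbo+COM33 vs control (119 to 2189 genes, 0.71% to 13.0%) and 0 to 3 in Carbo vs control (0 to 1026 genes, 0.0% to 6.08%). In the paired fit, leaving out 1 pair gave 2 to 10 subunits (1623 to 4338 genes, 9.87% to 26.4%), and the GC correction gave 3 (1715 genes, 10.4%).

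The replicate number paired no Carbo+COM33 libraries: correlations with same-numbered Carbo libraries were -0.015, 0.138 and -0.388, and with control libraries 0.0851, 0.101 and -0.42, so not each library correlated best with its own number. With the block in the 2 groups ITGAX and ITGA6 were called vs Carbo. Vs control LAMB2 was not called with the block (adjusted p = 0.0519).

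Of the alternatives for single subunits, 780 kept direction and side of the threshold, 66 lost a call, 71 gained one and 33 changed sign. Those that changed sign had not been called in the unpaired fit. In Carbo vs control the GC correction gave -0.0188 for ITGB1 (-0.0208 paired), 0.24 for ITGB4 (0.23 paired), 0.0045 for ITGB5, 0.0294 for LAMA5 (0.0333 paired) and 0.0808 for LAMB2 (0.078 paired). In Carbo+COM33 vs Carbo it gave 0.055 for ITGAV (0.0526 with the block), and in Carbo+COM33 vs control -0.0681 for ITGB1 (-0.0682 with the block) and 0.0444 for ITGB5 (0.0447 with the block). Leaving out 1 library gave ranges across 0 in Carbo vs control for ITGA6 (-0.008 to 0.24), ITGB4 (-0.12 to 0.10), ITGB5 (-0.15 to 0.0166) and ITGB6 (-0.0002 to 1.04). It did so in Carbo+COM33 vs Carbo for ITGAV (-0.10 to 0.0361), ITGB5 (-0.045 to 0.15) and LAMB1 (-0.23 to 0.0029), and in Carbo+COM33 vs control for ITGB1 (-0.0125 to 0.0703), ITGB5 (-0.11 to 0.0584) and LAMB1 (-0.08 to 0.16). Counts of 0 to 17 per library left 7 subunits untested, and the low counts of ITGAX, ITGB6, ITGB7, ITGB8 and LAMA4 limit their precision.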
